A study of Homo sapiens with 18 samples.

Results

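The genes described here are 43 genes of glucose transport, glycolysis, the pentose phosphate pathway and the response to low oxygen, out of 26702 genes listed in at least 1 of 6 deposited comparison tables. They were taken by gene symbol from a list of names, with no cut on a measured value, and all 43 were found. The list was chosen with earlier results of these data known. By role they comprise 4 transporters of glucose and lactate, 16 glycolytic enzymes, 5 kinases that set the flux of the pathway, 2 pentose phosphate enzymes, HIF1A with 2 of the hydroxylases that control it, and 13 further targets of HIF. ANGPTL4, with a mean of 0.897 normalized counts, was listed in 4 of the 6 tables, and the other 42 genes were listed in all 6.

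The samples were polyadenylated RNA from U2OS cells, a human osteosarcoma line with functional p53. Cells received a control siRNA (siControl), an siRNA against ANKRA2 (siANKRA2) or an siRNA against RFXANK (siRFXANK), and were then treated for 24 h with 10 µM Nutlin-3a, which releases p53 from MDM2, or with its solvent DMSO. This gave 6 groups of 3 samples and 18 samples in all. All groups shared the cell line, the transfection, the 24 h treatment and the library kit. No further allele or agent was listed. ANKRA2 and RFXANK encode related ankyrin repeat proteins, and RFXANK is a subunit of the RFX complex that drives MHC class II genes. How many siRNA sequences were used per target is not given in the sources used here, so effects beyond the targeted gene cannot be told apart from those of its loss. The 6 siRFXANK samples were registered separately and with other label fields than the 12 others, without siControl samples of their own, so this difference in registration and the siRFXANK effect cannot be told apart wherever siRFXANK was set against siControl.

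Glucose enters cells through the SLC2A carriers, is phosphorylated by hexokinases and is cleaved and oxidized by the glycolytic enzymes to pyruvate. Lactate dehydrogenase then makes lactate, which leaves through the SLC16A carriers, while the PDK kinases keep pyruvate out of mitochondria. HIF1A is the subunit of the transcription factor HIF that is hydroxylated by the EGLN enzymes and degraded when oxygen is present, and at low oxygen HIF raises most genes of this set. Activated p53 is known to restrain glycolysis, for example through its target TIGAR.

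The tables gave for each gene a mean normalized count over the samples, and for each comparison a log2 fold change, its standard error (SE) and a p-value adjusted across all genes. Values of single samples were not analysed here, so the spread between the 3 samples of a group entered only through the SE. Nothing in the labels says whether the 3 samples were separate cultures, so the p-values cover the spread between these samples, which may be technical. A gene was called where its adjusted p was under 0.05. Each siRNA lowered its own target. ANKRA2 was 3.51-fold lower in siANKRA2 than in siControl cells in DMSO and 5.97-fold lower in Nutlin-3a, and RFXANK was 7.78-fold lower in siRFXANK cells in DMSO and 8.96-fold lower in Nutlin-3a. RFXANK was also lower in siANKRA2 cells (-0.37 in DMSO and -0.44 in Nutlin-3a, log2), and ANKRA2 was higher in siRFXANK cells (0.73 and 0.46), all 4 called. All 10 p53 targets on a check list rose with Nutlin-3a in siControl cells, among them CDKN1A by 3.27 and MDM2 by 3.38 on the log2 scale. Of 10 mesenchymal markers 9 were listed, with mean normalized counts over all samples from 64042 for COL1A1 and 55026 for VIM down to 33.2 for COL1A2 and 2.08 for BGLAP. The siRFXANK samples are labelled as epithelial cells. Of 6 epithelial markers KRT8 and KRT18 had means of 21456 and 12960 over all samples, EPCAM and CDH1 161 and 32.9, and KRT5 and KRT19 3.56 and 1.67. CDH1 was lower in siRFXANK than in siControl cells (-1.35 in DMSO and -0.88 in Nutlin-3a, log2).

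HIF binds DNA through a short core motif, and the 250 bases before annotated start sites were searched for it. Windows came from RefSeq on GRCh38.p14 for 37 of the 43 genes. The motifs were ACGTG and GCGTG, read on both strands, and a palindromic match to ACGTG counted on each strand. At least 1 of them stood in 37 of the 65 windows of these genes (56.9%), against 43.2% of all 35116 windows of the same length. For ACGTG alone the shares were 35.4% and 18.5%, and for GCGTG alone 32.3% and 32.2%. GTTGCNA, a half-site of the X-box that RFX proteins bind, stood in 6 of the 65 windows (9.23%) against 7.81% of all windows. A match describes only the letters and does not show that a factor binds there. Windows of 6 genes with a single start are shown, with both motifs in capitals. ADM, ALDOC, ENO1 and PGK1 are shown because they were higher in siANKRA2 and lower in siRFXANK cells, and CA9 and EGLN3 because they fell most with Nutlin-3a in siControl cells.
ADM, chr11:10304823-10305072, plus strand: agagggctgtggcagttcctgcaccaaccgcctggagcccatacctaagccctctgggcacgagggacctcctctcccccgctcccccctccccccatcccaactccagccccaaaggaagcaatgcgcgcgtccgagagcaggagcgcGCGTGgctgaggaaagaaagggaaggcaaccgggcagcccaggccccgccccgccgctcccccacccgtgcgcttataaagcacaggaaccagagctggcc
ALDOC, chr17:28576896-28577145, minus strand: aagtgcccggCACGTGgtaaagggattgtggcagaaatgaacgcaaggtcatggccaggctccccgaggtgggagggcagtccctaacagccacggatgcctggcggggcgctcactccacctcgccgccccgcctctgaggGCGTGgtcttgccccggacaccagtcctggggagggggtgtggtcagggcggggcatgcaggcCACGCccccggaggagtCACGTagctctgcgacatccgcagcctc
ENO1, chr1:8878687-8878936, minus strand: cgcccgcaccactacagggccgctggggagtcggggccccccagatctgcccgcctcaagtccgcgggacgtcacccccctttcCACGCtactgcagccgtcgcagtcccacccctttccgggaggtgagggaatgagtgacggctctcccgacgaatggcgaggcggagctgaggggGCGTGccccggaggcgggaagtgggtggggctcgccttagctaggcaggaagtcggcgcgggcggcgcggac
PGK1, chrX:78103998-78104247, plus strand: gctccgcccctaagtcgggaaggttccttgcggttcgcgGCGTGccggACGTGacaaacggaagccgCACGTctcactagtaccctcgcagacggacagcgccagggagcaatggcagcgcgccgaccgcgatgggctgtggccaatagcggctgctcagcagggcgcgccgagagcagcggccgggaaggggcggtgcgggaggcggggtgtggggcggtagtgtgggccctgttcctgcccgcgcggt
CA9, chr9:35673678-35673927, plus strand: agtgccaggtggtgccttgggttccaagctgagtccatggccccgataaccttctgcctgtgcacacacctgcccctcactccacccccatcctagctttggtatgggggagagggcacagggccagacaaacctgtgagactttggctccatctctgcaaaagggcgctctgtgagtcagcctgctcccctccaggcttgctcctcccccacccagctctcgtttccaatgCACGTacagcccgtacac
EGLN3, chr14:33951075-33951324, minus strand: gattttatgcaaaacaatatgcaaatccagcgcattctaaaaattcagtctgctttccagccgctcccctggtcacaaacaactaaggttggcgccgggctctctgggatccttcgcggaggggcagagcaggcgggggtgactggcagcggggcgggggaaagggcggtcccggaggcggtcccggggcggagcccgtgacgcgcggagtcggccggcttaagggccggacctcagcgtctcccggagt
ALDOC held 5 matches, PGK1 held 3, ENO1 held 2, ADM and CA9 held 1 each, and EGLN3 held 0 in this window.

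Most of the set was well expressed, as 39 of the 43 genes had a mean of at least 100 normalized counts. Per kb of annotated exon, the mean was 15076 normalized counts for the enolase gene ENO1, 12212 for LDHB, 11824 for the pyruvate kinase gene PKM and 8313 for TPI1, an order that depends on the gene length used. At the lower end stood ANGPTL4 with 0.361 per kb, CA9 with 4.41, PDK4 with 8.87 and PDK1 with 13.3. Group levels were obtained by spreading each mean over the 6 groups in the ratios of the deposited fold changes, and carry no error on that scale. Of the 42 genes with 6 levels, 26 were highest in a siANKRA2 group, 9 in a siControl group and 7 in a siRFXANK group. In turn 23 were lowest in a siRFXANK group, 11 in a siControl group and 8 in a siANKRA2 group. No share of all genes is given here for these counts, so they describe the members only. After siANKRA2 the median absolute log2 fold change of all genes with a mean of at least 100 was 0.39 (DMSO) and 0.40 (Nutlin-3a). After siRFXANK it was 0.29 and 0.24. The highest level was a median of 1.72 times the lowest, at least 2 times for 17 genes and under 1.5 times for 9. The 7 genes with at least a 4-fold range were SLC2A3, HK2, ALDOC, PGK1, PDK4, CA9 and CA12.

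**Figure D1:**
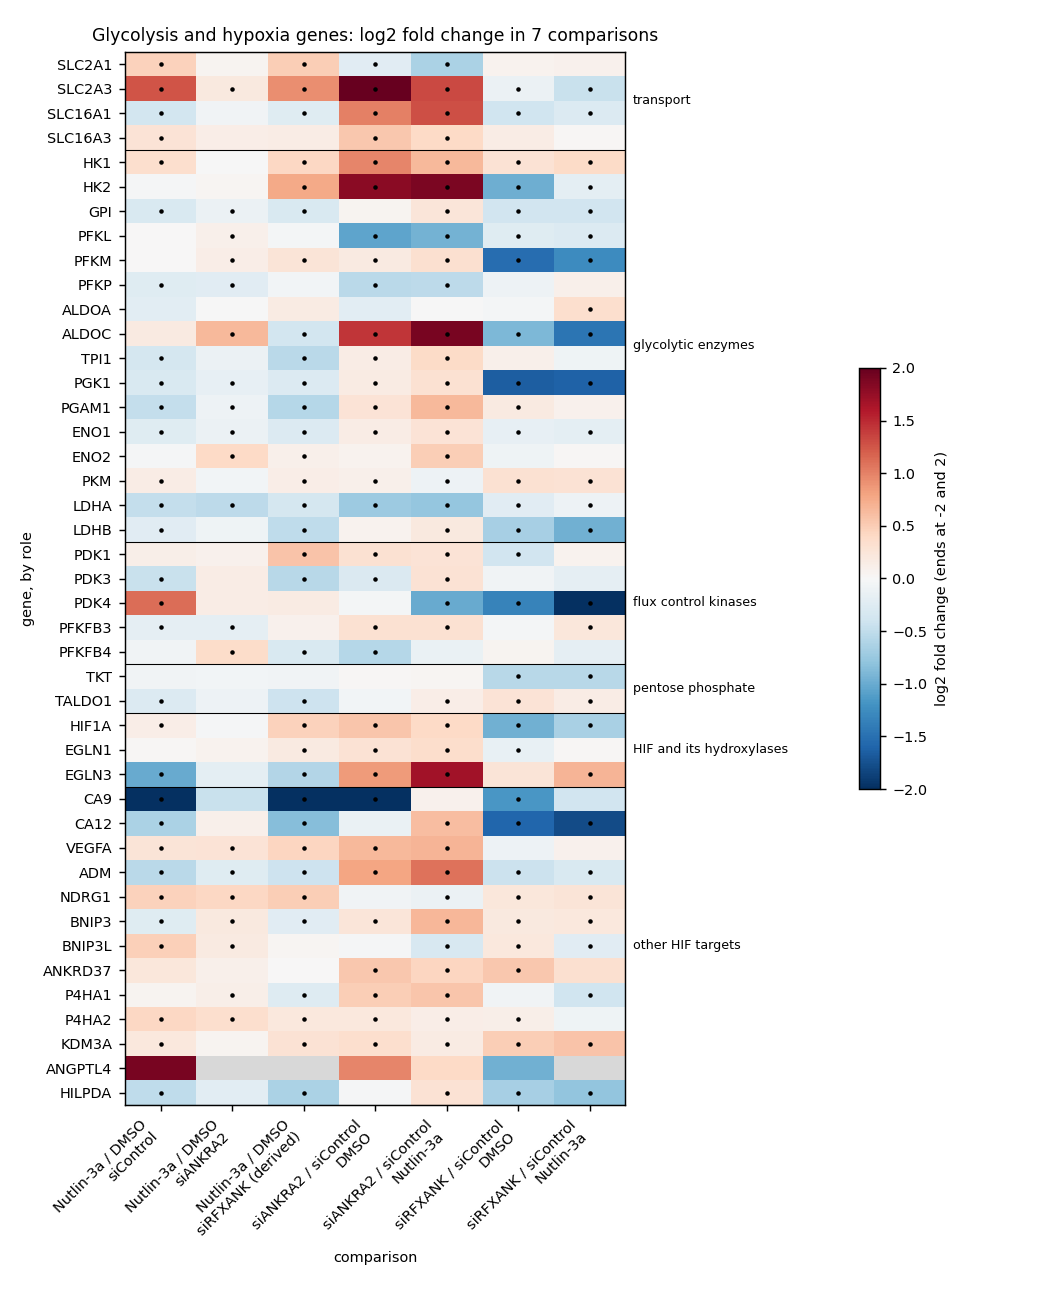
Log2 fold changes of the 43 genes (rows, by role) in 7 comparisons (columns), as colours from -2 to 2, where a dot marks an adjusted p under 0.05 and grey a gene not listed. SLC2A3, HK2 and ALDOC are deep red after siANKRA2, and PFKM, PGK1 and CA12 are deep blue after siRFXANK.

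The first comparison asked how p53 activation alone moved these genes. In siControl cells Nutlin-3a lowered much of the central glycolytic chain by small steps, raised both glucose transporters, and raised as many further HIF targets as it lowered. Of the 43 genes, 30 were called, 12 higher and 18 lower. Across all genes there, 43.2% were called, 21.9% higher and 21.2% lower. Genes with a mean of at least 100 were called more often, at 67.5%, and 28 of the 39 members at that level were called. The median change of the 43 genes was -0.03 on the log2 scale, beside 0.02 for all genes. Centred on 12 reference genes, whose median log2 fold change was -0.08, the split was 15 higher and 16 lower. Of these 12 genes 4 were themselves called higher and 5 lower. No share of all genes is given here for any split centred on them. Of 9 mesenchymal markers 7 were called higher and 1 lower in this comparison (median 0.33, log2). Of 6 epithelial markers 1 was called higher and 1 lower (median 0.12). Their part in the members' changes was not tested.

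All 4 transporters were called in siControl cells. SLC2A3, the high-affinity glucose carrier GLUT3, went from 1774 normalized counts in DMSO to 4265 in Nutlin-3a, a log2 fold change of 1.27 ± 0.0467 (SE, adjusted p = 5.08e-160). The ubiquitous carrier GLUT1, encoded by SLC2A1, rose by 0.46 ± 0.0407 on the log2 scale (adjusted p = 6.92e-29). The lactate carrier genes moved apart, as SLC16A3 rose by 0.27 ± 0.102 (log2, adjusted p = 0.0203) and SLC16A1 fell by 0.37 ± 0.0452 (log2, adjusted p = 3.69e-15).

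Of the 16 glycolytic enzymes 8 fell and 2 rose in siControl cells. The largest decreases were those of PGAM1 (log2 fold change -0.48), LDHA (-0.47), TPI1 (-0.36) and PGK1 (-0.31), with GPI at the same rounded value (-0.31). These enzymes act between the isomerization of glucose 6-phosphate and the formation of lactate. The 2 that rose were HK1 (0.34), the broadly expressed hexokinase, and PKM (0.15). HK2, the inducible hexokinase, had a log2 fold change of -0.03 ± 0.0771 and was not called. Among the kinases, PDK4, which blocks pyruvate dehydrogenase, rose from 39.7 to 86.0 normalized counts (1.12 ± 0.244, log2, adjusted p = 1.97e-05), while PDK3 fell (-0.44) and PFKFB3, which makes the activator of phosphofructokinase, fell (-0.18). The PDK4 levels depend on the scaling, and were 26.0 and 56.4 normalized counts when recovered from the standard errors. Of the pentose phosphate enzymes TALDO1 fell (-0.28) and TKT, at -0.08, was not called.

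HIF1A itself rose slightly with Nutlin-3a in siControl cells (0.14 ± 0.049, log2, adjusted p = 0.0146). EGLN3, a hydroxylase that HIF induces, fell from 144 to 71.7 normalized counts (-1.01 ± 0.134, log2, adjusted p = 4.29e-13), while EGLN1, at 0.02, was not called. Of the 13 further HIF targets 5 rose and 5 fell. CA9, a cell surface carbonic anhydrase, fell from 22.6 to 2.70 normalized counts, which lies under the floor of 3 counts used here for a group level. Its fitted log2 fold change of -3.07 ± 0.644 therefore rests on few reads. Its relative CA12 fell from 1659 to 1065 (-0.64 ± 0.0657, log2, adjusted p = 2.11e-21). ADM, the vasodilator adrenomedullin, fell (-0.54), as did HILPDA (-0.51), a lipid droplet protein, and BNIP3 (-0.23), a mitophagy receptor. BNIP3L (0.48), NDRG1 (0.47), P4HA2 (0.41) and VEGFA (0.26) rose, so that the relatives BNIP3 and BNIP3L moved in opposite directions. Of the isoenzyme relatives of these genes LDHB fell (-0.22), and PDK1 (0.12), PFKFB4 (-0.06) and P4HA1 (0.06) were not called.

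The next comparison asked whether the response was the same with ANKRA2 depleted. In siANKRA2 cells fewer genes were called and the changes were smaller. Of 42 listed genes 20 were called, 12 higher and 8 lower, where 32.4% of all genes were called, 15.5% higher and 17.0% lower. Centred on the reference genes, with a median of -0.09 (log2), the split became 17 higher and 2 lower. At a mean of at least 100 the share called was 48.7% of all genes and 20 of 39 members. The median absolute log2 fold change of the members was 0.12 here and 0.27 in siControl cells, beside 0.24 and 0.41 for all genes. At a mean of at least 100 the values were 0.12 and 0.26 for members and 0.17 and 0.28 for all genes. No member reached a log2 fold change of 1. SLC2A3 went from 9328 to 10706 normalized counts (0.20 ± 0.0421, log2), and SLC2A1 had a log2 fold change of 0.06 and was not called. ALDOC, a brain-type aldolase, rose most (0.65 ± 0.0888, log2, adjusted p = 2.88e-12), from 289 to 454 normalized counts, followed by NDRG1 (0.42), the neuronal enolase ENO2 (0.40) and PFKFB4 (0.36). LDHA fell by 0.53 ± 0.0371 (log2), with an adjusted p of 4.01e-44. Smaller decreases were called for ADM (-0.25), PFKP (-0.23), PFKFB3 (-0.18), PGK1 (-0.16), GPI (-0.12) and ENO1 (-0.11). Smaller increases were called for P4HA2 (0.33), VEGFA (0.28), BNIP3 (0.19), BNIP3L (0.18), PFKM (0.14), P4HA1 (0.12) and PFKL (0.11). ALDOA (-0.01) and LDHB (-0.09) were not called.

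The difference of the 2 responses was tested for each gene, with p-values adjusted over all 22738 genes listed in both tables. Of 42 members 20 were called, 14 with a more positive and 6 with a more negative response in siANKRA2 cells. Over all genes 24.0% were called, 11.4% in the positive and 12.5% in the negative direction, and at a mean of at least 100 the shares were 37.1% of all genes and 18 of 39 members. The largest differences were those of CA9 (2.62 ± 0.995, log2, adjusted p = 0.0375), SLC2A3 (-1.07 ± 0.0628, adjusted p = 6.55e-62), PDK4 (-0.97 ± 0.368, adjusted p = 0.0379), EGLN3 (0.82 ± 0.171, adjusted p = 1.91e-05) and CA12 (0.75 ± 0.0922, adjusted p = 2.08e-14). For CA9 the Nutlin-3a level was under the floor of 3 counts in both backgrounds. Of the 12 genes raised in siControl cells, 6 had a difference called below 0 and 0 above. Of the 18 lowered, 10 had a difference called above 0 and 0 below. This split uses the siControl response on both sides, so the choice itself favours differences of the opposite sign. No share of all genes split in this way is given here, and the counts are only a description. BNIP3 rose in siANKRA2 cells (0.19) and fell in siControl cells (-0.23), with a called difference of 0.42 ± 0.111 (log2). LDHA, VEGFA, NDRG1 and P4HA2 were called in the same direction in both backgrounds, with differences between -0.07 and 0.02 that were not called. The 95% interval of the LDHA difference ran from -0.16 to 0.05. The p53 check list moved alongside, as its 10 genes had a median response of 2.53 in siControl and 1.36 in siANKRA2 cells (log2), with all 10 differences called below 0. In DMSO 5 of the 10 were called higher and 3 lower in siANKRA2 than in siControl cells, with a median log2 fold change of 0.12, and CDKN1A was 4.12-fold higher. The part of this shift in the members' smaller responses was not tested. Of 8 mesenchymal markers 6 had a difference called below 0 and 0 above (median -0.41, log2). Of 5 epithelial markers 2 had a difference called below 0 and 1 above (median -0.35). The part of these markers was not tested either.

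**Figure D2:**
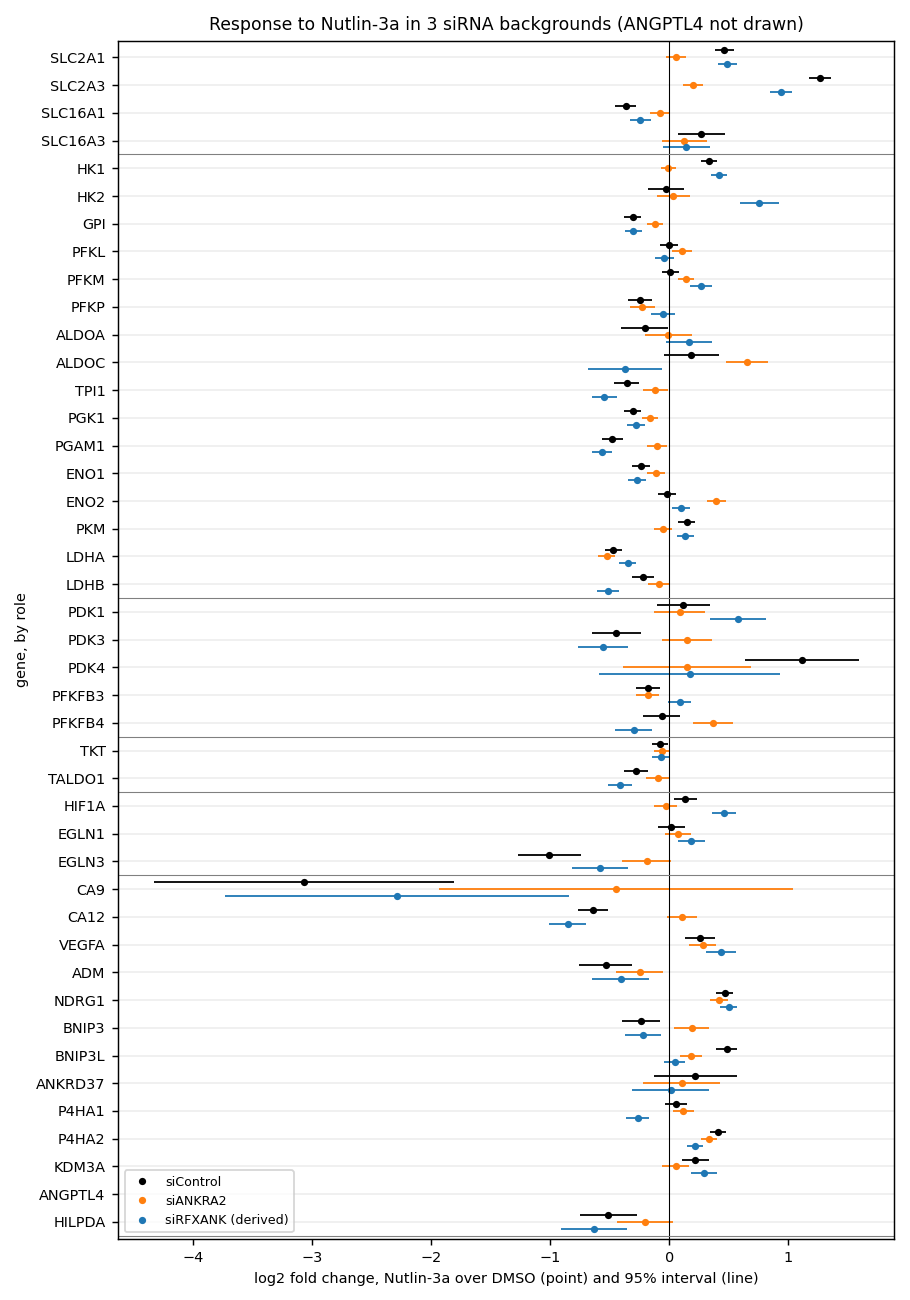
Log2 fold change of Nutlin-3a over DMSO for each gene (rows, by role) in siControl, siANKRA2 and siRFXANK cells, as points with 95% intervals from the standard errors. The siANKRA2 points lie nearer 0 than the siControl points for SLC2A3 (0.20 against 1.27) and EGLN3 (-0.19 against -1.01), while HK2 was called in siRFXANK cells (0.76) and not in the other two backgrounds.

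The response in siRFXANK cells was derived from 3 of the tables, as the siControl response plus the siRFXANK effect in Nutlin-3a minus that in DMSO. In these cells both glucose transporter genes, HIF1A and 5 glycolytic enzymes (HK2, HK1, PFKM, PKM and ENO2) rose with Nutlin-3a, and 8 enzymes fell. Of 12 further HIF targets 4 rose and 6 fell. Of 42 genes 33 were called, 14 higher and 19 lower, where 45.3% of all genes were called, 22.8% higher and 22.5% lower. At a mean of at least 100 the shares were 70.3% of all genes and 32 of 39 members. Centred on the reference genes, with a median of -0.16 (log2), the split was 20 higher and 13 lower. SLC2A3 rose by 0.94 ± 0.0477 (log2), from 1637 to 3130 normalized counts. HK2 rose from 458 to 774 normalized counts, by 0.76 ± 0.0821 (log2, adjusted p = 3.31e-19). PDK1 (0.58), NDRG1 (0.50), SLC2A1 (0.49), HIF1A (0.46), VEGFA (0.43) and HK1 (0.42) rose too, as did KDM3A (0.29), PFKM (0.26), P4HA2 (0.22), EGLN1 (0.18), PKM (0.13) and ENO2 (0.10). CA12 (-0.85), HILPDA (-0.63), EGLN3 (-0.58), PGAM1 (-0.57), PDK3 (-0.56), TPI1 (-0.54) and LDHB (-0.51) fell. TALDO1 (-0.42), ADM (-0.41), LDHA (-0.35), PFKFB4 (-0.30), P4HA1 (-0.26) and SLC16A1 (-0.24) fell by less. The relatives SLC16A3 (0.14), PFKL (-0.04), PFKP (-0.05), ALDOA (0.17), PDK4 (0.17) and PFKFB3 (0.09) were not called. CA9 was at 10.0 normalized counts in DMSO and 2.06 in Nutlin-3a.

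The difference between the siRFXANK and siControl responses was called for 13 of 42 members, 7 more positive and 6 more negative. Over all genes 21.2% were called, 11.6% positive and 9.64% negative, and at a mean of at least 100 the shares were 37.7% of all genes and 13 of 39 members. A difference between the registrations that is alike in both treatments cancels here. Relative to the reference genes, whose median difference was -0.16 (log2), the split was 21 positive and 2 negative. Of these 12 reference genes 5 had a difference called below 0 and 0 above. Centred on genes with a mean of at least 100, the split of the members was 6 positive and 7 negative, so it depends on the scaling. HK2 differed most among the called genes (0.79 ± 0.113, log2, adjusted p = 2.16e-10), followed by ALDOC (-0.56), PDK1 (0.46) and BNIP3L (-0.44). ALDOC fell in siRFXANK cells (-0.37) and rose in siANKRA2 cells (0.65). PDK4 differed by -0.95 ± 0.457 (log2, adjusted p = 0.137), a value as large as in siANKRA2 cells but not called. The p53 check list had a median response of 2.05 in siRFXANK cells, with 9 of 10 differences called below 0. Of 9 mesenchymal markers 5 had a difference called below 0 and 0 above (median -0.28, log2). Of 6 epithelial markers 1 had a difference called below 0 and 0 above (median -0.27). The part of these lists in the members' differences was not tested.

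Depletion of ANKRA2 raised most of the set in both treatments. In DMSO 31 of 43 genes were called, 24 higher and 7 lower, where 48.8% of all genes were called, 24.3% higher and 24.5% lower. In Nutlin-3a 38 of 43 were called, 30 higher and 8 lower, where 50.1% of all genes were called, 24.6% higher and 25.5% lower. Among genes with a mean of at least 100 the shares were 77.0% and 78.1%, and 29 and 36 of 39 members. The median log2 fold change of the members was 0.16 in DMSO and 0.30 in Nutlin-3a, while that of all genes was 0.01 and -0.01. In both treatments 23 genes were higher, as were 18.4% of all genes and 30.4% of those with a mean of at least 100. In both treatments 4 genes were lower, as were 18.5% and 31.3%. Markers of cell type moved alongside. Of 9 mesenchymal markers 5 were called higher and 3 lower in DMSO (median 0.60, log2), and 2 higher and 3 lower in Nutlin-3a (median -0.13). Of 6 epithelial markers 3 were called higher and 1 lower in DMSO (median 0.54), and 4 higher and 1 lower in Nutlin-3a (median 0.44). Their part in the members' changes was not tested.

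SLC2A3 (chr12:7919230-7936275, hg38, minus strand) showed the largest rise of the set in siANKRA2 cells in DMSO, from 1774 to 9328 normalized counts, a log2 fold change of 2.39 ± 0.0457. In Nutlin-3a it was 1.33 ± 0.0431 higher (log2, adjusted p = 4.72e-206). Of the stretches of 31 bases in its longest transcript 33.0% also occur in SLC2A14, so reads of this pair may be split or lost in counting. The lactate carrier gene SLC16A1 rose 2.01-fold in DMSO and 2.46-fold in Nutlin-3a. SLC16A3 was 1.45-fold and 1.31-fold higher. SLC2A1 went the other way, at -0.22 ± 0.042 in DMSO and -0.63 ± 0.0412 in Nutlin-3a (log2, both called).

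Of the 16 glycolytic enzymes 9 rose and 3 fell in DMSO, and 11 rose and 4 fell in Nutlin-3a. HK2 (chr2:74833981-74893359) rose 3.51-fold in DMSO (1.81 ± 0.0738, log2, adjusted p = 2.26e-131) and 3.67-fold in Nutlin-3a. HK1 rose 1.98-fold and 1.56-fold, so that both hexokinases increased. ALDOC (chr17:28573115-28577264) rose 2.69-fold in DMSO and 3.71-fold in Nutlin-3a. Of the enzymes of the lower pathway, TPI1 (0.14 and 0.38), PGK1 (0.16 and 0.31), PGAM1 (0.27 and 0.65) and ENO1 (0.14 and 0.27) were called higher on the log2 scale in both treatments. The liver-type and platelet-type phosphofructokinases fell, PFKL 2.07-fold in DMSO and 1.92-fold in Nutlin-3a, and PFKP 1.46-fold and 1.44-fold. PFKM, the muscle type, rose 1.14-fold and 1.25-fold. LDHA fell 1.65-fold and 1.72-fold, reaching 15128 normalized counts in siANKRA2 cells with Nutlin-3a from 35990 in siControl cells with DMSO. The pyruvate kinase gene PKM was called higher in DMSO (0.10) and lower in Nutlin-3a (-0.10). Of the relatives ENO2 (0.07 and 0.49) and LDHB (0.07 and 0.20) were called in Nutlin-3a, and ALDOA (-0.21 and -0.01) in neither treatment.

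Among the regulators, HIF1A rose 1.48-fold in DMSO and 1.31-fold in Nutlin-3a after siANKRA2, and EGLN1 1.22-fold and 1.27-fold. EGLN3 (chr14:33924231-34462774) rose 1.81-fold in DMSO and 3.19-fold in Nutlin-3a. Of the 13 further HIF targets 7 rose and 1 fell in DMSO, and 9 rose and 2 fell in Nutlin-3a. ADM rose 1.74-fold and 2.12-fold, VEGFA by 0.66 and 0.68 on the log2 scale, P4HA1, which hydroxylates collagen, 1.41-fold and 1.47-fold, and BNIP3 1.18-fold and 1.59-fold. The gene that fell in DMSO was CA9, at 22.6 normalized counts in siControl and 3.88 in siANKRA2 cells. The genes that fell in Nutlin-3a were BNIP3L (-0.32) and NDRG1 (-0.12). In DMSO BNIP3L was at -0.02 and not called, and in Nutlin-3a CA9 was at 0.08 and not called. ANKRD37 (0.54 and 0.43) and P4HA2 (0.21 and 0.14) were higher in both treatments (log2). CA12 was not called in DMSO (-0.13) and was higher in Nutlin-3a (0.61 ± 0.0659, log2). Of the kinases PFKFB3 rose 1.23-fold in each treatment and PDK1 by 0.30 and 0.27 on the log2 scale. PFKFB4 fell 1.48-fold in DMSO and was not called in Nutlin-3a (-0.14), and PDK4 was 2.01-fold lower in Nutlin-3a (adjusted p = 0.000107) but not called in DMSO (-0.04). PDK3 was called in opposite directions, -0.30 in DMSO and 0.30 in Nutlin-3a (log2). TALDO1 was called in Nutlin-3a (0.13), and TKT in neither treatment, with log2 fold changes of 0.02 and 0.04.

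Depletion of RFXANK lowered more of the set than it raised. In DMSO 30 of 43 genes were called, 10 higher and 20 lower, where 42.1% of all genes were called, 20.9% higher and 21.2% lower. In Nutlin-3a 28 of 42 were called, 9 higher and 19 lower, where 39.4% of all genes were called, 19.8% higher and 19.6% lower. Among genes with a mean of at least 100 the shares were 69.5% and 62.7%, and 27 of 39 members in each treatment. Centred on the reference genes the splits were 6 higher and 25 lower in DMSO, where their median was 0.12 (log2), and 12 higher and 16 lower in Nutlin-3a, where it was -0.03. After siRFXANK 17 genes were lower in both treatments, as were 13.2% of all genes and 22.4% of those with a mean of at least 100. Another 6 genes were higher in both, as were 13.1% and 22.5%. These values are subject to the separate registration of the siRFXANK samples. Of 9 mesenchymal markers 3 were called higher and 2 lower in DMSO (median 0.13, log2) and 5 lower in Nutlin-3a (median -0.14). Of 6 epithelial markers 2 were called lower in each treatment. Their part in the members' changes was not tested.

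Among the glycolytic enzymes the strongest decreases after siRFXANK in DMSO were those of PGK1 and PFKM. PGK1 (chrX:77910739-78129296), which makes the first ATP of the lower pathway, went from 14812 to 4749 normalized counts in DMSO, a 3.12-fold decrease, and was 3.05-fold lower in Nutlin-3a (log2 fold changes -1.64 ± 0.0359 and -1.61 ± 0.0366). PFKM (chr12:48105139-48146404) fell 2.87-fold in DMSO and 2.40-fold in Nutlin-3a, while PFKL fell 1.18-fold and 1.21-fold and PFKP was not called in either (-0.10 and 0.10). ALDOC fell 1.87-fold and 2.75-fold. LDHB fell 1.59-fold and 1.95-fold, and LDHA 1.17-fold and 1.08-fold. HK2 was 1.96-fold lower in DMSO and 1.14-fold lower in Nutlin-3a (adjusted p = 0.0414), whereas HK1 was 1.23-fold and 1.30-fold higher. Of the other enzymes PKM was higher in both treatments (0.31 and 0.30, log2), and GPI (-0.39 and -0.38) and ENO1 (-0.16 and -0.19) were lower. PGAM1 was higher in DMSO (0.18) and not called in Nutlin-3a (0.09), ALDOA was higher in Nutlin-3a (0.33) and not called in DMSO (-0.04), and ENO2 was called in neither (-0.09 and 0.03).

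HIF1A fell 1.95-fold in DMSO after siRFXANK, from 6468 to 3316 normalized counts, and was 1.56-fold lower in Nutlin-3a. EGLN1 was lower in DMSO (-0.15) and not called in Nutlin-3a (0.02), while EGLN3 was higher in Nutlin-3a (0.68, log2) and not called in DMSO (0.25). Of the 13 HIF targets 6 rose and 4 fell in DMSO, and of 12 listed in Nutlin-3a 3 rose and 5 fell. CA12 (chr15:63321378-63382161) fell 2.99-fold and 3.46-fold, reaching 307 normalized counts in siRFXANK cells with Nutlin-3a. HILPDA fell 1.59-fold and 1.72-fold and ADM 1.35-fold and 1.24-fold. KDM3A, a histone demethylase, rose 1.41-fold and 1.48-fold, and NDRG1 1.17-fold and 1.19-fold. ANKRD37 rose 1.45-fold in DMSO and was not called in Nutlin-3a (0.33, log2). CA9 fell from 22.6 to 10.0 normalized counts in DMSO and was not called in Nutlin-3a (-0.39, log2), where both levels were under 3 counts. BNIP3 was higher in both treatments (0.19 and 0.20), BNIP3L was called higher in DMSO (0.20) and lower in Nutlin-3a (-0.23), P4HA1 was lower in Nutlin-3a (-0.39) and P4HA2 higher in DMSO (0.11, log2). The P4HA2 call was lost and its sign turned when values were centred on the reference genes. VEGFA was not called in either treatment (-0.10 and 0.08). Of the kinases PDK4 fell 2.51-fold in DMSO and 4.84-fold in Nutlin-3a, to 17.7 normalized counts (11.6 when recovered from the standard errors). PDK1 was lower in DMSO (-0.39) and PFKFB3 higher in Nutlin-3a (0.23), while PDK3 (-0.06 and -0.18) and PFKFB4 (0.05 and -0.19) were called in neither treatment (log2). TKT fell 1.47-fold and 1.46-fold, while TALDO1 was higher by 0.28 and 0.14 on the log2 scale. Among the transporters SLC2A3 (-0.12 and -0.45) and SLC16A1 (-0.40 and -0.28) were lower, and SLC2A1 (0.06 and 0.09) and SLC16A3 (0.15 and 0.03, log2) were not called.

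**Figure D3:**
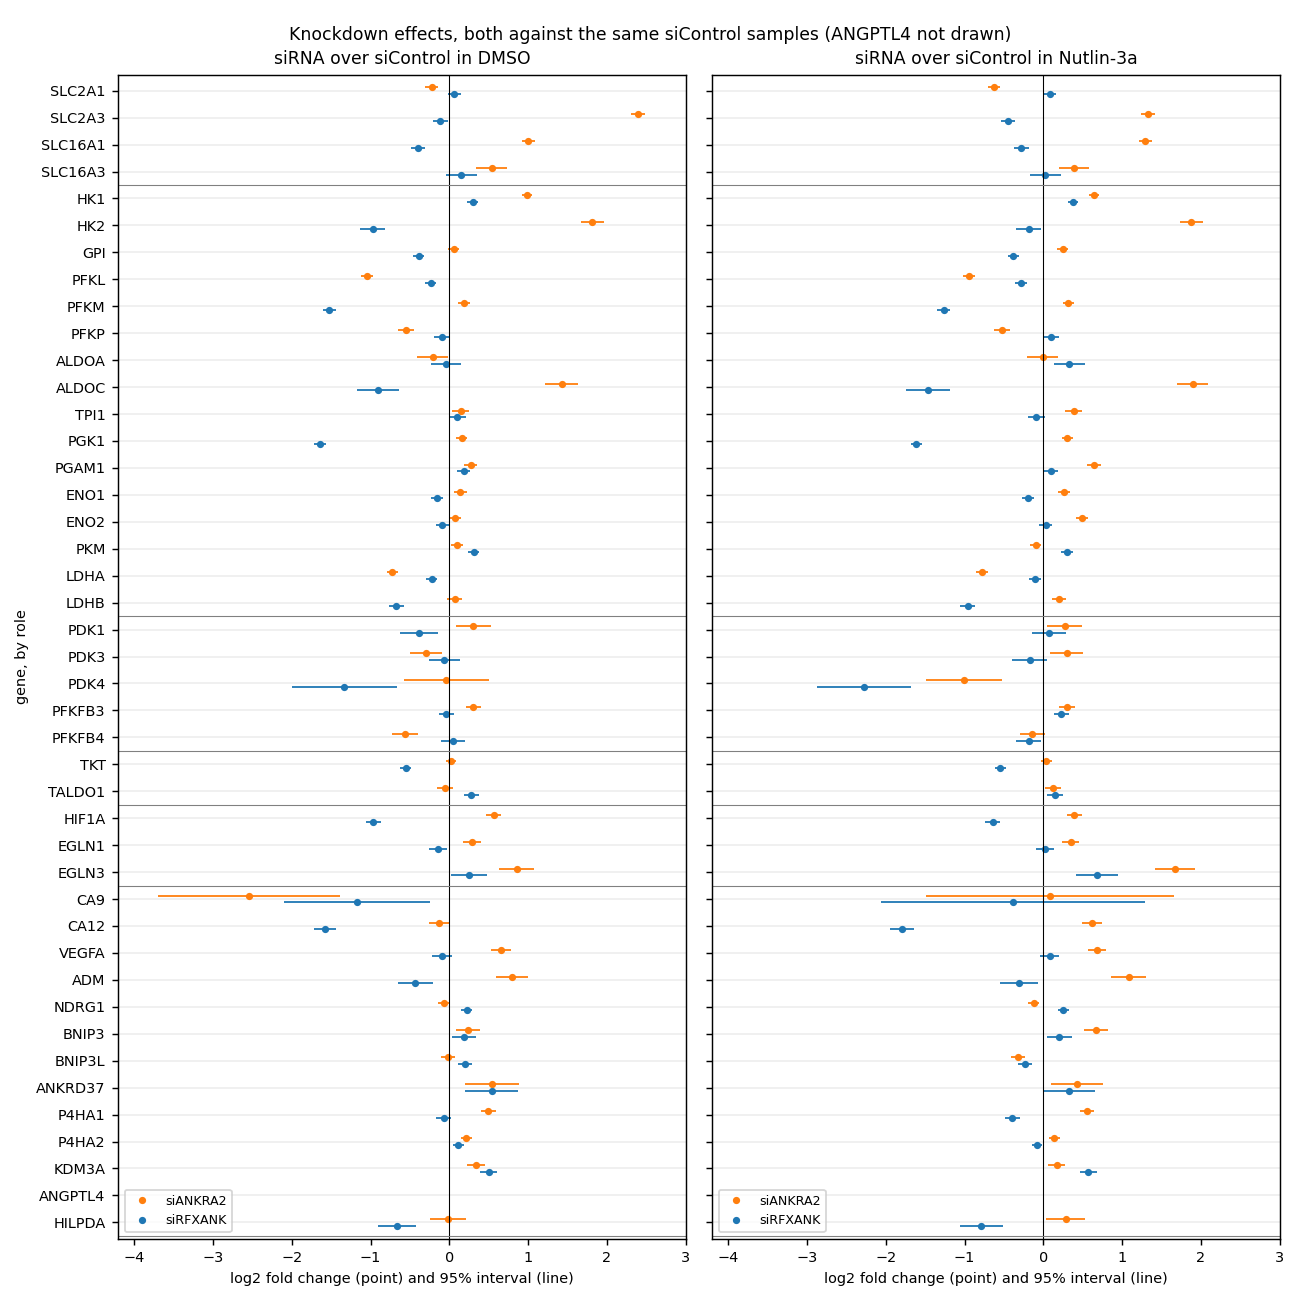
Log2 fold change of siANKRA2 and of siRFXANK over siControl for each gene (rows, by role) in DMSO (left) and Nutlin-3a (right), as points with 95% intervals from the standard errors. Both are set against the same siControl samples, and HK2 in DMSO lies at 1.81 after siANKRA2 and at -0.97 after siRFXANK.

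Set side by side, 9 genes were called higher in siANKRA2 and lower in siRFXANK cells in both treatments, namely the transporters SLC2A3 and SLC16A1, the enzymes HK2, PFKM, ALDOC, PGK1 and ENO1, and HIF1A and ADM. This pattern was shown by 3.14% of all genes and by 5.69% of those with a mean of at least 100. Both knockdowns share their siControl samples, so the values are given as a description. BNIP3, HK1 and KDM3A were higher after either siRNA in both treatments, and LDHA and PFKL were lower. Shared siControl samples make like directions more likely, and no share of all genes is given for them here. For HIF1A the levels in DMSO were 6468 normalized counts in siControl, 9540 in siANKRA2 and 3316 in siRFXANK cells. In Nutlin-3a they were 7107, 9343 and 4553. For ALDOC they were 108, 289 and 57.5 in DMSO and 122, 454 and 44.5 in Nutlin-3a. The order siANKRA2 over siControl over siRFXANK was the same in both treatments for these 2 genes, and each step from siControl was called. Both follow from their choice among the 9 genes.

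**Figure D4:**
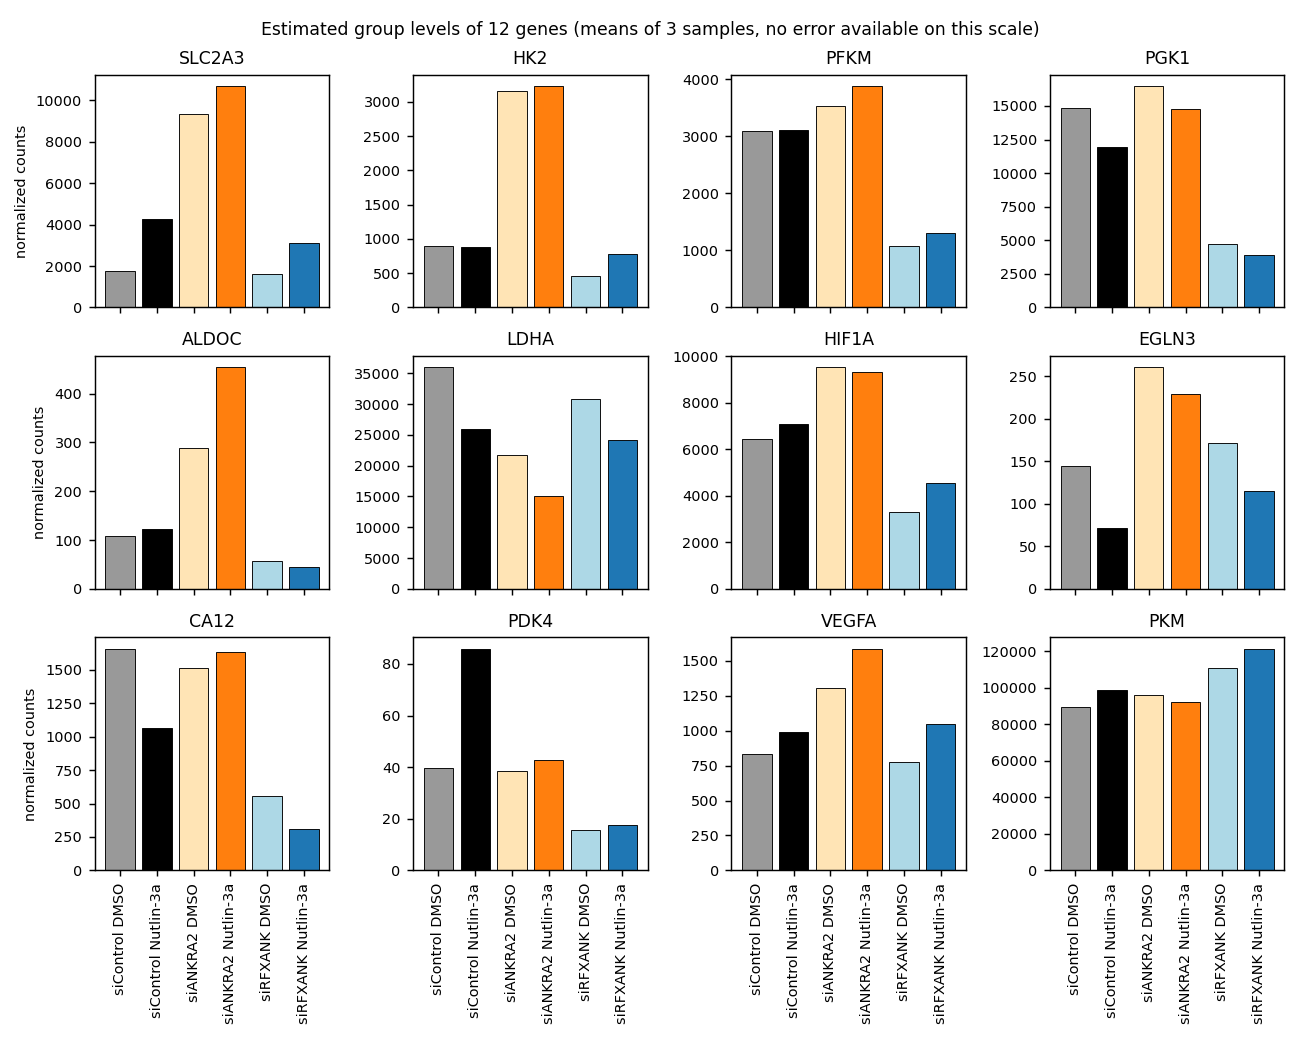
Estimated levels of 12 genes in the 6 groups as bars on linear axes from 0, in normalized counts (mean of 3 samples, with no error on this scale). HK2 stands at 3162 and 3237 in the siANKRA2 groups and at 900 or less in the other 4, while PKM varies between 89291 and 121390.

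The shares of related isoenzymes within their families differed between the groups, most for the glucose transporters and the aldolases. The aldolase shares are uncertain, as 53.5% of the exon bases of ALDOA lie within other genes and its level may miss reads. Levels were divided by the annotated exon length of each gene to compare them per kb, and the shares carry no error. SLC2A3 made up 29.7% of the sum of SLC2A1 and SLC2A3 per kb in siControl cells in DMSO and 42.5% in Nutlin-3a. In siANKRA2 cells its share was 72.2% and 74.1%, and in siRFXANK cells 27.2% and 33.8%. The share of HK2 among the hexokinases HK1 and HK2 was 17.0% in siControl cells in DMSO, 26.7% in siANKRA2 and 7.9% in siRFXANK cells. PFKM made up 28.2% of the phosphofructokinase genes per kb in siControl cells in DMSO, 43.0% in siANKRA2 and 13.3% in siRFXANK cells. The LDHA share of LDHA and LDHB per kb was 28.2% in siControl cells in DMSO and 24.8% in Nutlin-3a. In DMSO and Nutlin-3a it was 18.5% and 14.3% in siANKRA2 cells, and 34.8% and 37.4% in siRFXANK cells. PDK4 made up 11.8% of PDK1, PDK3 and PDK4 in siControl cells in DMSO and 26.5% in Nutlin-3a. Recovered from the standard errors instead, its levels there were 26.0 and 56.4 normalized counts, so these shares depend on how levels were scaled.

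**Figure D5:**
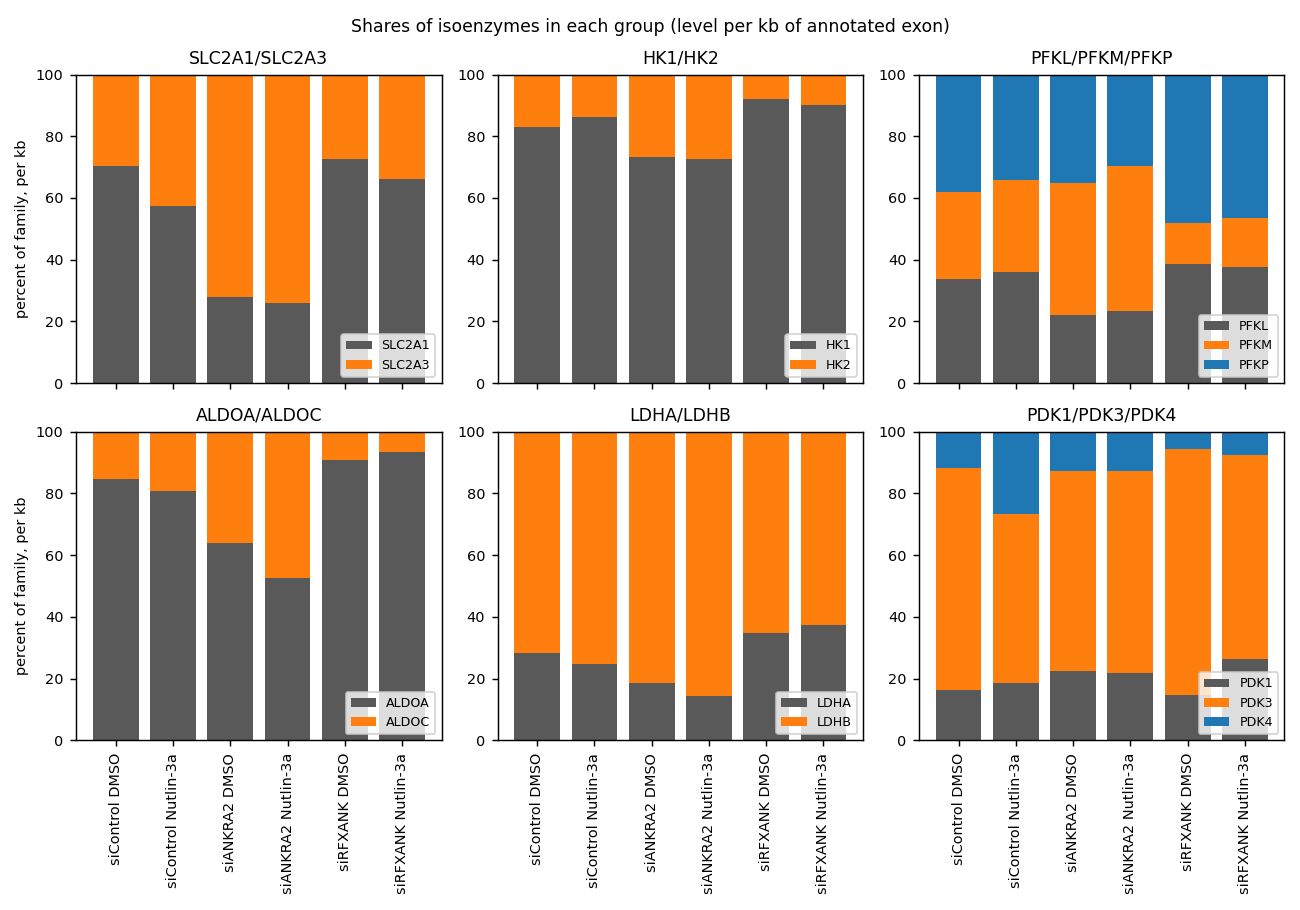
Share of each isoenzyme in the sum of its family (percent, level per kb of annotated exon) in the 6 groups, for 6 families, as stacked bars without error. The SLC2A3 share goes from 29.7% in siControl cells to 72.2% in siANKRA2 cells in DMSO, and the PFKM share falls from 28.2% to 13.3% in siRFXANK cells.

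Some of these levels are uncertain because genes overlap. Of the exon bases of ALDOA 53.5% lie within other genes, chiefly AC093512.2 on the same strand, and its mean per kb was 189 normalized counts beside 8313 for TPI1, the next step. Its log2 fold changes (called for siRFXANK over siControl in Nutlin-3a, 0.33, and for the difference of response in siRFXANK cells, 0.37) and its share of the aldolases may therefore miss reads. For LDHB 33.4% of exon bases lie in AC010197.2 on the same strand. CA9 overlaps ARHGEF39 on the opposite strand over 38.5% of its exon bases, and ANKRD37 overlaps UFSP2 over 35.2%, and the use of strand in counting is not given in the sources used here. PGAM1 shares 50.3% of its stretches of 31 bases with other genes, most of them with the copy AC012085.1, TPI1 28.3%, BNIP3 20.3%, LDHA 19.9% and HK2 16.3%.

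The other genes of these pathways were taken from 4 further lists, which together had 62 genes in the tables. In siControl cells 38 of the 62 were called with Nutlin-3a, 21 higher and 17 lower, beside 43.2% of all genes and 67.5% of those with a mean of at least 100. The increases included those of the transcription factor BHLHE40 (2.03, log2) and the fructose bisphosphatase TIGAR (1.84), and the largest decreases were those of the collagen crosslinker LOX (-1.05), BHLHE41 (-0.93) and ZNF395 (-0.77). In siANKRA2 cells 26 of 61 were called (all genes 32.4%), 18 higher and 8 lower, led by PPP1R3C (1.61), KDM4B (0.94) and the glycogen branching enzyme GBE1 (0.81) and by BHLHE41 (-0.62), PDP1 (-0.48) and ENO3 (-0.24). TIGAR rose by 0.65 there. In siRFXANK cells 45 of 62 were called (all genes 45.3%), 23 higher and 22 lower, with LDHD (1.68) and TIGAR (1.57) among the increases and STC2 (-2.21), BHLHE41 (-1.79) and LOX (-0.98) leading the decreases.

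After siANKRA2 51 of the 62 other genes were called in DMSO, 29 higher and 22 lower, and 49 in Nutlin-3a, 26 higher and 23 lower, beside 48.8% and 50.1% of all genes and 77.0% and 78.1% of those with a mean of at least 100. LOX rose 4.60-fold in DMSO and by 3.47 in Nutlin-3a (log2), and HK3 (2.58, mean 5.07 normalized counts) was another leading increase in DMSO. RBPJ (1.54) and HKDC1 (1.07) followed LOX in Nutlin-3a. The leading decreases were PFKFB1 (-1.88), ZNF395 (-1.84) and BHLHE41 (-1.81) in DMSO and LDHD (-1.96), BHLHE41 (-1.51) and LDHC (-1.35) in Nutlin-3a. After siRFXANK 46 were called in DMSO, 23 in each direction, and 45 in Nutlin-3a, 15 higher and 30 lower, beside 42.1% and 39.4% of all genes and 69.5% and 62.7% of those with a mean of at least 100. LDHD (-2.87), TXNIP (-1.35), which restrains glucose uptake, and ZNF395 (-1.29) fell most in DMSO, and HK3 (2.74) and LOX (1.16) rose most, followed by HKDC1. In Nutlin-3a HKDC1 (1.61), LOX (1.23) and RBPJ (1.01) led the increases and TXNIP (-1.66), ZNF395 (-1.45) and LDHD (-1.45) the decreases. Of the partners of HIF1A, EPAS1, which encodes HIF2A, rose with Nutlin-3a in siControl cells (1.29) and after either siRNA in DMSO (1.55 and 0.91), and ARNT, the shared subunit, fell after siANKRA2 (-1.11 in DMSO). GAPDH, EPAS1 and ARNT were named after their values were seen. GAPDH, a glycolytic enzyme often used as a reference, had log2 fold changes of 0.02 with Nutlin-3a in siControl cells, -0.07 after siANKRA2 and -0.15 after siRFXANK in DMSO, of which the last was called.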

How the data were processed

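The data were 6 deposited tables of comparisons between groups of 3 polyadenylated RNA-seq libraries of U2OS cells. Per the labels, RNA was extracted with the RNeasy Plus Mini kit and libraries were made with the NEBNext Ultra II kit. Per the labels the authors used bcl2fastq 2.20.0.422, Trimmomatic 0.39, cutadapt 2.10, FastQC 0.11.9, SAMtools 1.10, Picard and featureCounts 1.6.5 on build hg38, and DESeq2 1.20.0 for the comparisons. The aligner, the gene annotation and the use of strand are not given in the sources used here.

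Each deposited table held a mean normalized count per gene, which is a signal scaled by the authors for library size, a log2 fold change with its standard error on the log2 scale, a test statistic (the score of the Wald test) computed by the authors, and a p-value with its adjusted p-value (Benjamini-Hochberg), as deposited. Values per library were not used, so the depth of each library is unknown here and no interval from read counts is given. No column of other samples was present.

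Whether the comparisons come from 1 joint fit was checked where this was possible. The 4 siANKRA2 comparisons closed to within 1.38e-14 on the log2 scale, and the squared standard errors of both pairs of tables summed to the same value. On this basis the siRFXANK response to Nutlin-3a was computed from 3 tables, with a squared standard error equal to the sum of those of the siRFXANK comparisons less that of the siControl response. Differences between responses were tested with a two-sided normal test, adjusted (Benjamini-Hochberg) over all 22738 genes for siANKRA2 and 25116 for siRFXANK. A gene was called at an adjusted p under 0.05. The calculation was also run on simulated data with independent groups. This setting holds the assumption that the calculation makes, so the run could not test that assumption.

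Group levels were scaled so that the mean of the 6 groups equals the deposited mean. The fit behind the tables may include other samples, and levels recovered from the standard errors instead differed by a median ratio of 0.924 (0.671 to 1.53), within 1.5 times for 41 of 42 genes. The exception was PDK4, at 1.53. Gene positions, exon lengths, overlaps and shared stretches of 31 bases came from GENCODE 29 on GRCh38, which held 26659 of 26702 gene identifiers (99.8%), and windows before starts from RefSeq on GRCh38.p14.

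The 43 genes and all lists were chosen with earlier results of these data known. Any of the 43 genes may be named. In each comparison the text or the closing section names, per role, the called genes in order of size of change, at least up to 4 per direction, and isoenzyme relatives of named genes, and of the other pathway lists the 3 largest changes per direction, of which 1 gene is not reported here. Alternatives were a threshold of 0.01, minimum changes of 0.5 and 1 on the log2 scale, minimum means of 10 and 100, adjustment over all genes with a p, and centring on well expressed or on 12 reference genes. Python 3.11.15, pandas 2.3.3, numpy 2.4.6, scipy 1.17.1 and matplotlib 3.10.9 were used.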

Additional observations from a re-analysis of the deposited data

Results flagged for a closer look

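For 20 of the 42 genes tested (24.0% of all genes, and 18 of 39 beside 37.1% at a mean of at least 100) the Nutlin-3a response differed between siANKRA2 and siControl cells by a test of the difference itself. The values are the siANKRA2 minus the siControl log2 fold change. The response was more positive in siANKRA2 cells for CA9 (2.62), EGLN3 (0.82), CA12 (0.75), PDK3 (0.59), ALDOC (0.47), PFKFB4 (0.43), BNIP3 (0.42), ENO2 (0.42), PGAM1 (0.37), SLC16A1 (0.29), TPI1 (0.24), GPI (0.19), PGK1 (0.15) and PFKM (0.13). It was more negative for SLC2A3 (-1.07), PDK4 (-0.97), SLC2A1 (-0.40), HK1 (-0.34), BNIP3L (-0.30) and PKM (-0.20). The 10 p53 targets of the check list had differences with a median of -1.15 on this scale.

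For 13 of the 42 genes tested (21.2% of all genes, and 13 of 39 beside 37.7% at a mean of at least 100) the response differed between siRFXANK and siControl cells by the same kind of test, as the siRFXANK minus the siControl log2 fold change. It was more positive for HK2 (0.79), PDK1 (0.46), ALDOA (0.37), HIF1A (0.32), PFKFB3 (0.27), PFKM (0.26) and PFKP (0.20). It was more negative for ALDOC (-0.56), BNIP3L (-0.44), SLC2A3 (-0.33), P4HA1 (-0.32), LDHB (-0.29) and P4HA2 (-0.19). Centred on the reference genes, the split was 21 more positive and 2 more negative, and centred on genes with a mean of at least 100 it was 6 and 7. The p53 check list had a median difference of -0.33 here.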

How the results depend on the processing

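A threshold of 0.01, minimum means of 10 or 100, and adjustment over all genes with a p kept the number of called genes within 1.5 times in all 9 comparisons. Requiring a log2 change of at least 1 left 4, 0 and 1 genes for Nutlin-3a in siControl, siANKRA2 and siRFXANK cells, 6 and 7 for siANKRA2 and 5 and 5 for siRFXANK in DMSO and Nutlin-3a, and 2 and 0 for the differences of response in siANKRA2 and siRFXANK cells. At 0.5 these numbers were 7, 2, 11, 16, 17, 12, 11, 6 and 2. No share of all genes past either size cut is given here, so these numbers describe the members only. Centred on the reference genes, the siRFXANK difference of response was called for 23 genes in place of 13, of which 9 were among the 13, and the value for P4HA2, siRFXANK over siControl in DMSO, changed sign to -0.0047 (adjusted p = 0.946). The cause was not tested. Few counts limit CA9, with 3 of 6 group levels at or under 3 normalized counts, and ANGPTL4. No paired analysis was possible because the tables hold no values per library, and for the same reason no sample could be left out.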
